A study of Mus musculus with 2 samples.

Results

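The genes described here build the nuclear pore, carry cargo through it or line the inside of the nuclear envelope. They were taken by symbol, as all Nup genes with a number, the importins (Ipo, Kpna, Kpnb1), transportins (Tnpo) and numbered exportins (Xpo), Ran and its exchange factor Rcc1, the lamins, and the envelope genes Lbr, Emd, Banf1, Sun1, Sun2 and Syne. Of 18193 genes on the array with a single symbol, 55 met this rule, through 142 probe sets. RNA came from the spleens of C57BL/6 mice bearing hepatocellular carcinoma. One sample was sorted as Ter119-positive and CD45-negative, that is, for a red cell surface marker and against the common white cell marker, and is called CD45-negative here. Its control, from the same animals, was sorted as CD45-positive, with no Ter119 gate stated. Each sample was hybridised to 1 Affymetrix 3' array. The sources used here give neither the number of mice nor whether their cells were pooled.

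Nuclear pores are large channels of nucleoporin proteins that span the nuclear envelope. Importins and exportins carry proteins and RNAs through them, and Ran, a small GTPase kept in its GTP form on chromatin by Rcc1, sets the direction. Under the inner membrane lies the lamina, a mesh of A-type and B-type lamins, which SUN proteins and nesprins tie to the cytoskeleton. Red cell precursors in mammals condense their nucleus and expel it, so that the nuclear envelope and its traffic are of interest in this lineage.

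Intensities are those deposited, on a linear scale, and a difference is the log2 value of CD45-negative cells less that of CD45-positive cells. A gene counted as measured above an intensity of 101 (log2 6.66). This was the 95th percentile, with both arrays joined, of 80 probe sets whose genes encode smell and pheromone receptors, taken as silent in spleen. For counts and medians, values at or under this level were set to it. A bound printed for a gene that was dim in the CD45-negative array is taken against 127, that array's own 95th percentile, and one for a gene dim in the CD45-positive array against 101. Each group had 1 array, so that no difference between the cell samples was tested and none has an error or a p-value. The only repeated measure is the spread of different probe sets of a gene, 0.66 on the log2 scale (SD, over 3608 genes with several probe sets above the level in both arrays) and 0.44 for 31 of the genes described here, which is not replicate error.

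Marker genes were checked against the labelled sort. All 9 red cell markers on the array were at least 4-fold higher in CD45-negative cells (summed intensity 398668 against 10963), and all 7 white cell markers were at least 4-fold lower (2928 against 148972), as were the 4 B cell and 5 T cell markers. Of 6 myeloid markers 5 were at least 4-fold lower. Of the other cell types the gate could hold, megakaryocyte and platelet markers were higher in 6 of 6 (34822 against 1642), while of 8 stromal and endothelial genes 5 were under the level in both arrays and 1, Vwf, which platelets carry, was at least 4-fold higher. Dividing cell markers were also higher, 9 of 9 by at least 4-fold, with a summed intensity of 254043 in CD45-negative cells against 9259.9 in CD45-positive cells. The part that platelet RNA and cell division play in the differences below was not tested. In bulk arrays like these, fewer cells of a type and less RNA per cell cannot be told apart.

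As a set, the nuclear pore, transport and lamina genes were modestly brighter in CD45-negative cells, with a few members far apart from the rest. Of the 55 genes, 53 were measured and 50 of them in both arrays, while of all 11793 measured genes 8272 were measured in both. Values set to the level were thus rarer among the members than among all genes. At least 4-fold higher were 3, Lmna, Xpo7 and Kpna2, where 8.31% of all 11793 measured genes were, and 1, Ipo8, was at least 4-fold lower, where 16.8% of all genes were. At 2-fold, 17 members (32.1%) were higher, against 16.8% of all measured genes, and 5 (9.43%) were lower, against 33.3%. The median difference was 0.61 for the members and -0.26 for all measured genes, and 40 of 53 members (75.5%) lay above 0, against 43.3% of all. After quantile normalization both medians moved up, to 0.80 for the members and 0.01 for all genes, and the gap between them was 0.79, against 0.87 as deposited. At 4-fold, the count of members higher was near the share over all genes in some settings (5 of 53 against 9.33% of all genes after quantile normalization).

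**Figure D1:**
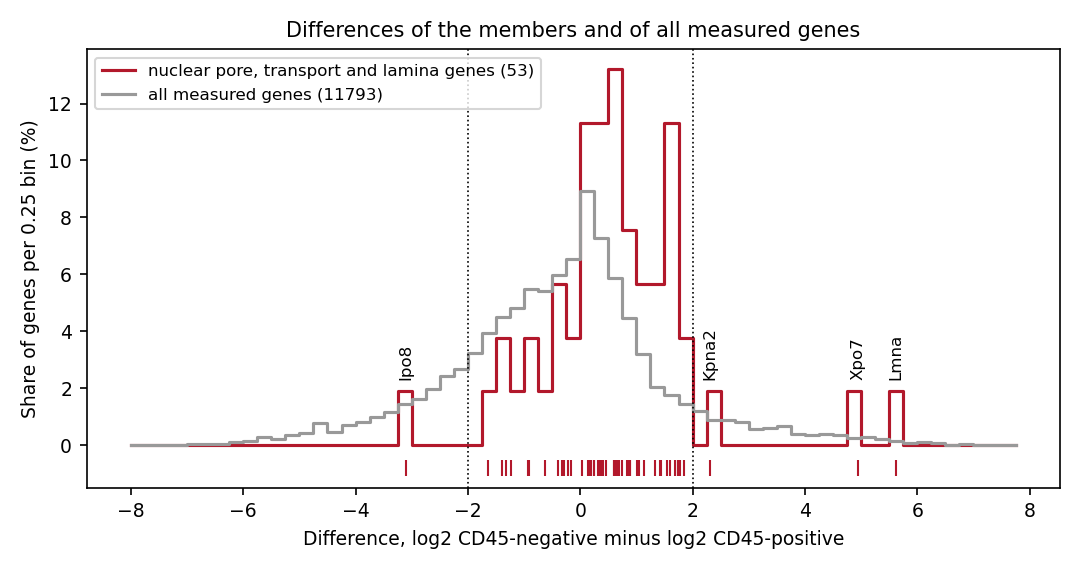
Histogram of differences (log2 intensity in CD45-negative minus CD45-positive cells, 1 array each) as a share of genes per bin, for the 53 measured members in red and all 11793 measured genes in grey, with dotted lines at 4-fold and a tick below for each member. The red curve is centred to the right of the grey one, and 4 members lie outside the 4-fold lines.

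RefSeq promoter sequence (GRCm38.p6) matched 46 of the 55 genes, not Xpo7. The 250 bases before the annotated starts are shown for the other members past 4-fold, Lmna (with 2 annotated starts), Kpna2 and Ipo8, since these depart most from the set. A 3' array does not tell which start was used. Capitals mark matches on either strand to a GATA motif (searched as AGATAA, and likewise as TGATAA, also as AGATAG, and besides as TGATAG), the Kruppel-like motif CCNCNCCC, CCAAT, or E2F motifs (TTTGGCGC, TTTCCCGC, TTTGCCGC or TTTCGCGC), and all 4 windows are on the minus strand.
Lmna, chr3:88503353-88503602: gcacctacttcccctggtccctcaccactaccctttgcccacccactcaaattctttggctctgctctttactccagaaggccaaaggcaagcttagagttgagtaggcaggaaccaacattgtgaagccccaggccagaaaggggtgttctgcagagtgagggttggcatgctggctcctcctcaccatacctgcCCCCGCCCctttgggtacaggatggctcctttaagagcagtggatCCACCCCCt
Lmna, chr3:88493313-88493562: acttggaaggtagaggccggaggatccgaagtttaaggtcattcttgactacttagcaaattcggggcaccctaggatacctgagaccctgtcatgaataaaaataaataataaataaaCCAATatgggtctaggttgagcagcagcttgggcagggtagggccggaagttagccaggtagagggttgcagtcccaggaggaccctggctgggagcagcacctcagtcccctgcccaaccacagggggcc
Kpna2, chr11:106999526-106999775: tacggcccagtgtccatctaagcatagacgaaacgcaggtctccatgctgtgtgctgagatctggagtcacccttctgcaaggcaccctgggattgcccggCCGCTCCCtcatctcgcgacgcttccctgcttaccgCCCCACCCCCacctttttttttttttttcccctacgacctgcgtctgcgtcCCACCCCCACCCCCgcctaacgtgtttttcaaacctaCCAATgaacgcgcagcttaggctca
Ipo8, chr6:148831468-148831717: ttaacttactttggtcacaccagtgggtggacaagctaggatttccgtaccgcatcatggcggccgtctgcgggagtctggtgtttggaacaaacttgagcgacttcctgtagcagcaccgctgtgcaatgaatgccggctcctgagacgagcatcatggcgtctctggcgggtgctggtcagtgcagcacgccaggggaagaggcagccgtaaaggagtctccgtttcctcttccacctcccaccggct

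The first Lmna start held 2 matches to the Kruppel-like motif and the second 1 CCAAT. Kpna2 held 6 Kruppel-like matches, some overlapping, and 1 CCAAT, and the Ipo8 window held 0 of the motifs searched. Over the members, 7 of 59 promoters (11.9%) had a GATA motif, against 26.5% of all 32851 promoters in the table. The Kruppel-like motif was in 59.3% of the members' promoters against 45.9% of all, CCAAT in 47.5% against 33.8%, and an E2F motif in 2 (3.39%) against 1.86%. A match is a run of letters and no evidence of binding.

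The largest difference among the members was that of Lmna, which encodes the A-type lamins A and C. It had an intensity of 9993 in CD45-negative cells against 203 in CD45-positive cells, 49.2-fold higher (5.62 on the log2 scale), the 44th from the top when 11793 genes are ordered by signed difference. Its 5 probe sets all pointed the same way but not by the same amount. Next to this probe set, one with 1481 against 25.9 was at least 14.6-fold and one with 770 against 23.2 at least 7.61-fold higher. The other two were dim, at 238 against 60.8 and 162 against 86.1, with raw differences of 1.97 and 0.91. Averaged over probe sets, with the level applied, the difference of Lmna was 3.07. The 3 brightest probe sets carry ID suffixes for shared or alternative transcripts, and with all suffixed probe sets left out Lmna rested on the dimmest alone, at 0.68.

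The B-type lamins differed by less. Lmnb1, which lines the nucleus of nearly all cells, had 1609 in CD45-negative cells against 498 in CD45-positive cells, 3.23-fold higher, and its other probe set gave 1927 against 366. Lmnb2 was under the level in CD45-negative cells (75.8 against 192), at least 1.51-fold lower. The gap between the differences of Lmna and Lmnb1 was 3.93 on the log2 scale. Among genes that act on lamin A and that the symbol rule does not take, Narf, whose human protein binds prelamin A, was 9.62-fold higher at 3815.5 against 397, with all 3 probe sets at least 9.62-fold higher. Zmpste24, the protease that trims prelamin A, was 4.13-fold lower by its only probe set at 683 against 2819 (-1.89 after quantile normalization). Icmt, which methylates the processed end of lamins and other proteins, stood at 366 against 430.0.

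Partners of the lamina at the inner membrane were split. Lbr, the lamin B receptor, which also reduces sterols, had 31899 in CD45-negative cells against 9531 in CD45-positive cells. That is 3.35-fold higher by its only probe set (1.13 on the log2 scale after quantile normalization, against 1.74). Banf1, a small protein that ties DNA to the envelope, had 5407 against 3568, with differences from 0.60 to 0.81 over 3 probe sets. Emd, which encodes emerin, had 635 against 838, and its direction turned after quantile normalization (0.12). Tmpo, which encodes the LAP2 lamina proteins and lies outside the symbol rule, was 5.79-fold higher at 23495 against 4056, with 4 of its probe sets between 2.14 and 2.86. The other two were dim in CD45-positive cells (173 against 25.6 and 131 against 27.3), at least 1.71-fold and 1.29-fold higher. Of the other genes in this group outside the rule, Tmem43, an inner membrane protein, was 4.38-fold lower (162 against 711), with -1.49 after quantile normalization and -0.45 with the mean of probe sets. Matr3, a nuclear matrix protein that binds RNA, was 2.31-fold lower (5744 against 13266), and Tor1a, an ATPase of the space between the nuclear membranes, 2.42-fold lower (471 against 1141).

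The 2 SUN genes that the rule takes, whose proteins cross the inner membrane, ran in opposite directions. Sun3, Sun5 and Spag4, which are outside the rule, were measured in neither sample. Sun1 had 2504 in CD45-negative cells against 1393 in CD45-positive cells, 1.80-fold higher. Sun2 had 1854 against 4847, 2.61-fold lower. Both probe sets of each gene pointed its own way, and the gap between the differences was 2.23 on the log2 scale. Of the nesprins, which take up the link on the cytoplasmic side, Syne3 was 2.91-fold higher by its only probe set (314 against 108, the latter close to the level). Syne1 was 1.88-fold lower (327 against 612, and -0.20 on the log2 scale after quantile normalization, against -0.91). No direction holds for Syne2, whose chosen probe set read 115.7 against 47.9 while another read 2.5 against 432, at least 3.40-fold lower. Nor does one hold for Syne4, whose chosen probe set read 67.8 against 123.9, too close to the level for a difference, while the other read 145.3 against 56.9, at least 1.44-fold higher.

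Xpo7 stood out among the exportins. In mouse erythroblasts this export receptor is known to be needed for chromatin condensation and for expulsion of the nucleus. Its intensity was 41725 in CD45-negative cells against 1356.5 in CD45-positive cells, 30.8-fold higher (4.94 on the log2 scale), the 116th from the top in the same order. A second probe set gave 25319 against 682, 37.1-fold higher. The other 3 measured probe sets had raw differences from 3.64 to 4.30, and 3 further ones were not measured. The mean over all 8, with the level applied, gave a difference of 2.01. The level of its relative Ranbp17, which is outside the rule, was close to the limit. The probe set chosen for it was unmeasured at 98.2 against 47.9, and 2 others read 193.5 against 15.9 and 130.8 against 5.3, at least 1.91-fold and 1.29-fold higher.

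No other exportin came near this difference. Xpo1, the main receptor for proteins with a leucine-rich export signal, had 7769 in CD45-negative cells against 4658 in CD45-positive cells (0.74), but its second probe set gave -0.48. Xpo4, which exports the translation factor eIF5A, was 1.86-fold higher (1133 against 610), and Xpo5, which exports microRNA precursors, had 529 against 479.5. Xpo6, the exporter of actin, was 3.10-fold lower at 746 against 2315, by its only probe set. The gap between the differences of Xpo7 and Xpo6 was 6.58 on the log2 scale. Outside the rule, the transfer RNA exporter Xpot was 3.72-fold higher (3815 against 1025), with 3 probe sets between 0.46 and 1.90. Cse1l, which returns importin alpha to the cytoplasm, had 1935 against 2029.

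**Figure D2:**
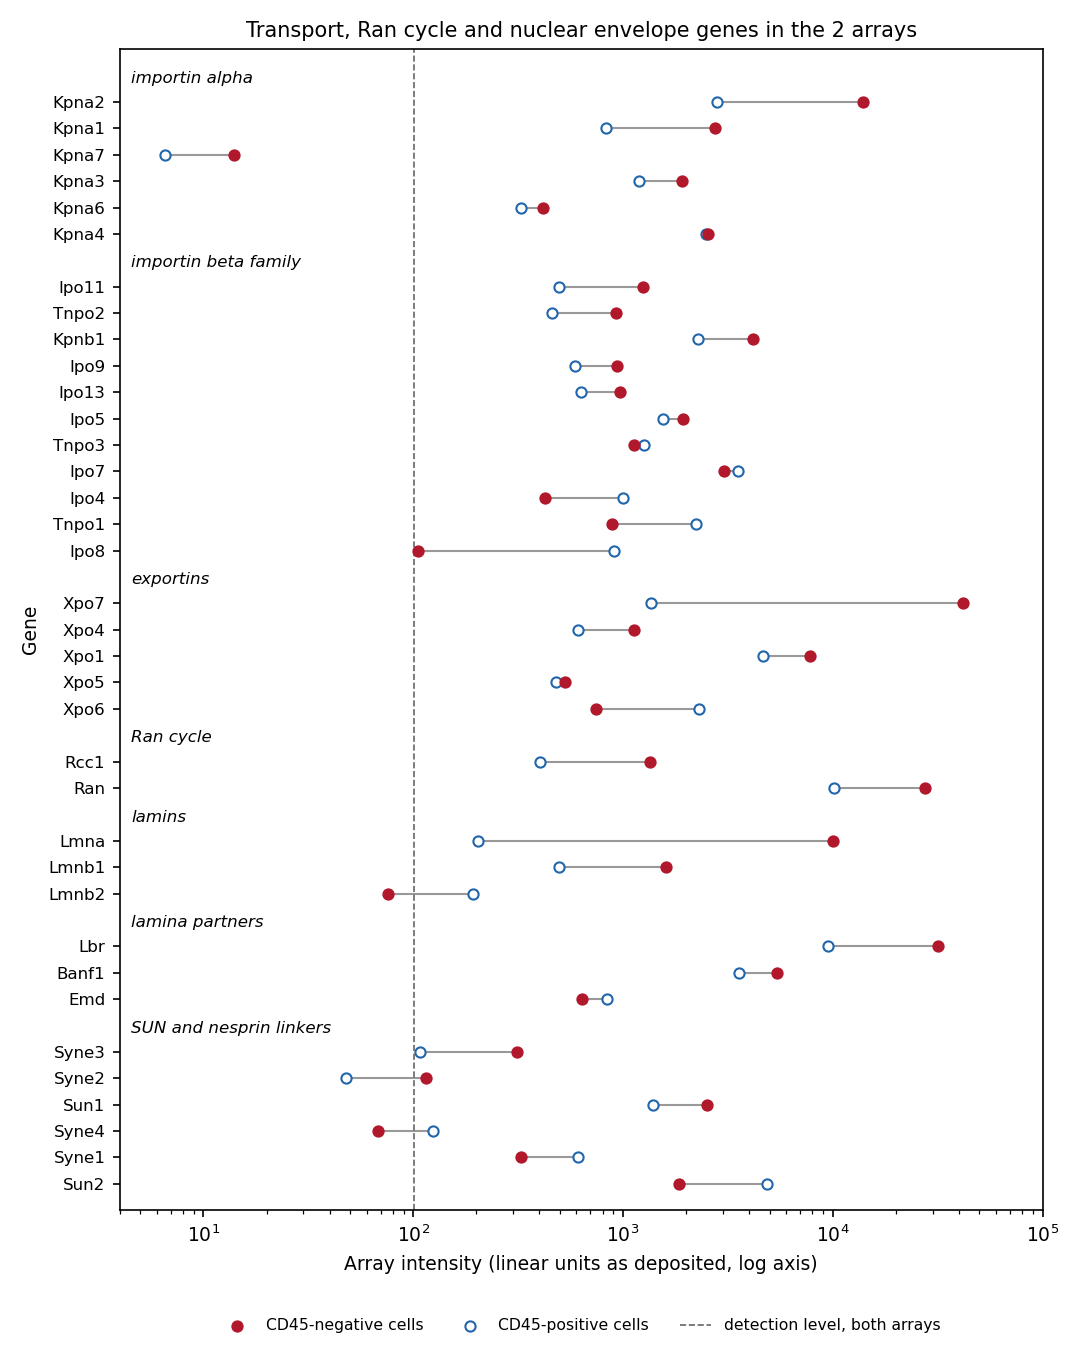
Intensity (log axis) of each transport, Ran cycle and envelope gene in CD45-negative cells (filled red) and CD45-positive cells (open blue), 1 array each, grouped by role and ordered by difference, with the detection level of 101 dashed. Lmna and Xpo7 show the widest gaps to the right, Ipo8 the widest to the left, and Emd, Kpna4, Tnpo3 and Syne4 change direction after quantile normalization.

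Importin alphas, the adaptors that hold a cargo's import signal, were higher in CD45-negative cells or close to equal. Kpna2, an adaptor abundant in dividing cells, had 13919 in CD45-negative cells against 2805 in CD45-positive cells, 4.96-fold higher by its only probe set, and 1.92 on the log2 scale (under 4-fold) after quantile normalization. Kpna1 was 3.33-fold higher (2755 against 826), with 5 probe sets between 1.43 and 2.08. Kpna3 had 1905 against 1189 and Kpna6 had 417 against 325.5, which are 1.60-fold and 1.28-fold higher. The difference of Kpna6 was 0.36 as deposited and 1.05 after quantile normalization. Kpna4 had 2544 against 2476, a difference of 0.04 that became -0.02 after quantile normalization. Kpna7, known from oocytes and early embryos, was measured in neither sample. The difference of Kpna2 exceeded that of Kpna4 by 2.27 on the log2 scale.

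The importin beta family binds cargo itself or through importin alpha. Of 11 measured, 2 were at least 2-fold higher (16.8% of all measured genes were), 3 at least 2-fold lower (33.3% of all) and 6 within 2-fold, with a median of 0.31. These counts are near the shares over all genes. Kpnb1, the partner of the importin alphas, had 4168 in CD45-negative cells against 2267 in CD45-positive cells, and its 4 probe sets ran from 0.88 to 1.92. Ipo8, which carries Argonaute and Smad proteins, was the lowest of all members, at 105.3 against 906, at least 7.12-fold lower. Its other 2 probe sets were too dim to bear on this (56.3 against 125.1, and 86.7 against 69.5), and with the mean of all 3, and the level applied, the difference was -0.98. The paralogous transportins differed. Tnpo1, the receptor of many RNA-binding proteins, had 885 against 2219 by the probe set used and 653 against 499 by another, so its direction is uncertain. Tnpo2 had 924 against 458, 2.02-fold higher, with raw differences from 0.54 to 1.72 over 3 probe sets, the widest from one that was dim in CD45-positive cells (306 against 92.7). Tnpo3, which imports splicing factors, had 1134 against 1263, with probe sets on both sides of 0 and a difference of 0.11 after quantile normalization.

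Ipo4, an importer of histones, was 2.35-fold lower in CD45-negative cells (426 against 999), and its second probe set gave -0.56. Ipo11 had 1244 against 494 by the probe set used, 2.52-fold higher. The other was dim at 36.9 against 126.3, and the mean of both was -0.22. Ipo5 and Ipo7, which import ribosomal proteins among others, had 1938 against 1559 and 3041 against 3536. Ipo9, an importer of histones H2A and H2B, had 932 against 591.5, but without probe sets suffixed for cross-hybridization its difference was -0.48. Ipo13, which works in both directions, had 973 against 629.

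Ran and Rcc1 were both higher. Ran had 27455 in CD45-negative cells against 10143 in CD45-positive cells, 2.71-fold higher, with 5 probe sets between 1.28 and 1.51 (0.82 for the probe set used after quantile normalization). Of these, 4 carry the suffix for probes that may also match other sequences, and the remaining one gave 1872 against 768. Rcc1 was 3.34-fold higher by its only probe set (1348 against 404). Of the regulators outside the rule, Rangap1, which makes Ran hydrolyse its GTP, was 4.05-fold higher (2675 against 661), and a second probe set gave 2.23. The third was dim (166 against 54.8, at least 1.64-fold higher). With that one alone, as when suffixed probe sets were left out, the difference was 0.72, and with the mean of probe sets 1.95, both under 4-fold. Ranbp1, its cofactor, was 1.61-fold higher (7299 against 4546).

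Nucleoporins were shifted up, none of those measured by 4-fold. Of 19 on the array 18 were measured, 6 were at least 2-fold higher (16.8% of all measured genes were), 0 at least 2-fold lower (33.3% of all) and 12 within 2-fold, with a median of 0.53. Nup37 and Nup54 lay below 0, and 15 of 18 were above 0 after quantile normalization, where the median was 0.79. With the mean of probe sets 15 of 18 were above 0 and the median fell to 0.40. In the coat of the pore, Nup85 had 2593 in CD45-negative cells against 760 in CD45-positive cells (3.41-fold higher) and Nup133 had 2184 against 720 (3.03-fold higher). The coat proteins Nup160 (2796 against 1833), Nup107 (770 against 588) and Nup43 (593 against 526) differed by less. Nup37, another coat protein, had 359 against 558, and its difference turned to 0.08 after quantile normalization. Members of the coat, whose proteins sit in a shared complex, thus spanned differences from -0.63 to 1.77.

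All 4 inner ring genes were brighter in CD45-negative cells, from Nup93 (1182 against 894) and Nup205 (2662 against 1946) over Nup155 (777 against 484) to Nup188 (882 against 402.5). Their differences lay between 0.40 and 1.13. In the central channel, whose proteins carry the phenylalanine-glycine repeats that form the barrier, Nup62 was 2.66-fold higher (11428 against 4290.5), with 4 of its probe sets from 1.32 to 1.64. The fifth was dim in CD45-positive cells (170 against 22.8), at least 1.68-fold higher. Nup98 had 1736 against 976, with -0.16 by its other probe set, and Nup54 had 1002 against 1249. On the cytoplasmic side Nup88 was 2.06-fold higher by its only probe set (6216 against 3023) and its partner Nup214 1.19-fold higher (1435 against 1208).

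The 2 measured basket genes, whose proteins face the nuclear interior, were unlike each other. Nup50, which helps importin alpha release its cargo, had 6119 in CD45-negative cells against 1701 in CD45-positive cells, 3.60-fold higher, with 3 probe sets between 1.58 and 1.85. Nup153 had 6608 against 5600.2, a difference of 0.24 that became -0.19 after quantile normalization, and its probe sets ran from -0.86 to 0.87. Nup210, which anchors the pore in the membrane, had 5749 against 4539 (-0.03 after quantile normalization). Its testis relative Nup210l was not measured in either sample.

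**Figure D3:**
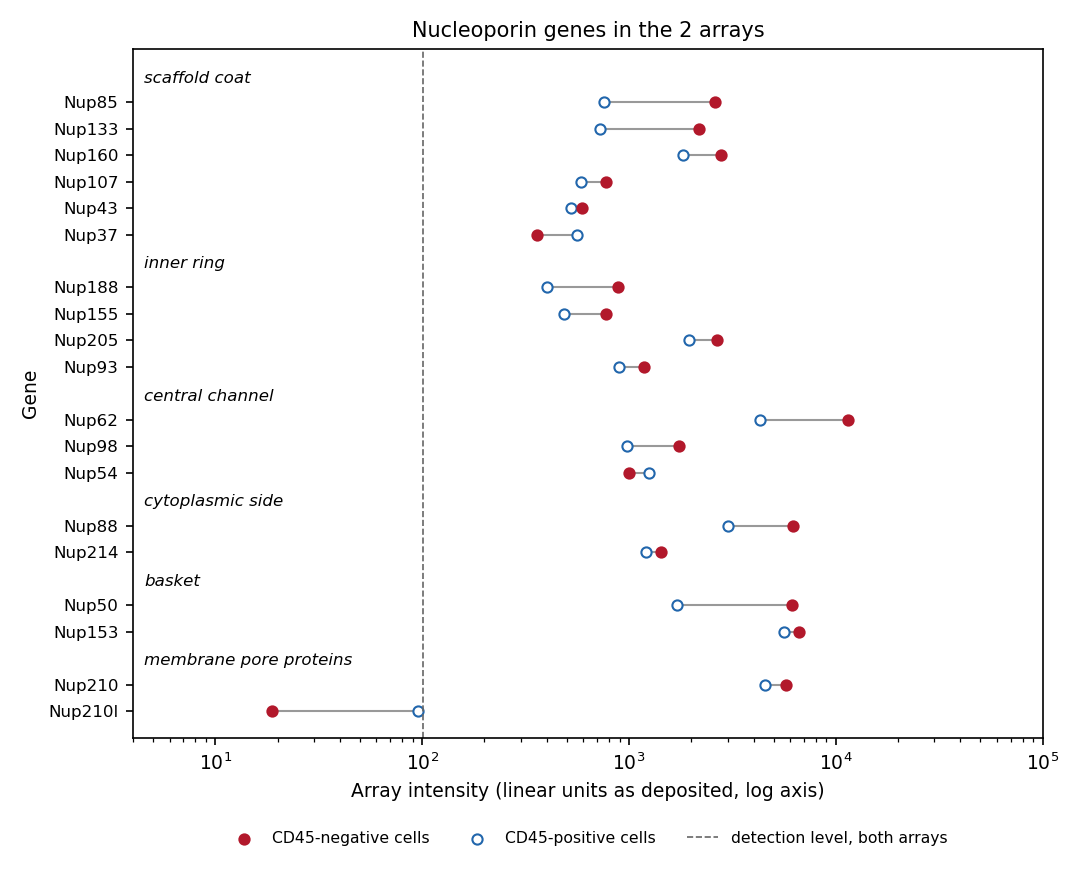
Intensity (log axis) of each nucleoporin gene in CD45-negative cells (filled red) and CD45-positive cells (open blue), 1 array each, grouped by place in the pore. Most red points lie a short way to the right of the blue ones, with Nup50, Nup85 and Nup133 widest apart among the measured genes. Of the measured genes, Nup37 and Nup54 lie the other way, and Nup37, Nup153 and Nup210 change direction after quantile normalization. The widest gap drawn is that of Nup210l, to the left, but both its values (18.7 against 95.4) are under the detection level.

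Pathway genes that the symbol rule does not take showed a weaker shift as a list. Of 48 on the array 43 were measured, 3 were at least 4-fold higher (Narf, Tmpo and Rangap1) and 3 passed 4-fold lower with dim values set to 101 (Tmem43, Ddx19b and Zmpste24), against 8.31% and 16.8% of all measured genes, with a median of 0.03. After quantile normalization 3 were higher and 0 lower at this threshold. Among pore genes in this list, Ranbp2, the large protein of the cytoplasmic filaments, had 6529 in CD45-negative cells against 2695 in CD45-positive cells, but its 4 probe sets ran from -2.41 to 1.28. Ahctf1, which seeds pores on chromatin after mitosis, had 4489 against 2114, but its 4 probe sets ran from -0.55 to 1.09. Pom121, a membrane anchor, had 5038 against 2999. Of 10 messenger RNA export genes, 2 were at least 2-fold higher (16.8% of all measured genes were) and 2 at least 2-fold lower (33.3% of all). In this group 7 lay below 0, and the median was -0.29. Eny2 was 2.98-fold higher (3329 against 1117) and Thoc1 2.40-fold lower (782 against 1875). Measured probe sets of both fell on both sides of 0 (-0.11 to 1.95 and -1.52 to 1.66). Nxt1 was 2.25-fold higher (3569 against 1586) while its partner Nxf1 had 3138 against 3477. Ddx19b, a helicase of messenger RNA export, was under the level in CD45-negative cells (77.7 against 426), and against that array's own percentile of 127 it was at least 3.35-fold lower, under the threshold. The mean of its probe sets, with the level applied, gave -0.19.

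Of the 53 measured members, 39 had several measured probe sets. In 10 of these the probe sets fell on both sides of 0, and in 0 did they differ by 2-fold or more in opposite directions once values under the level were set to it. The 10 were Ipo11, Ipo9, Nup153, Nup54, Nup98, Syne2, Syne4, Tnpo1, Tnpo3 and Xpo1. For these the direction rests on the choice of probe set. Lmna, Xpo7, Kpna1, Ran, Nup62, Nup50, Kpnb1, Nup133, Banf1, Kpna3 and Tnpo2 each had 3 or more measured probe sets, all above 0. Ipo7 had 3, all below 0 (-1.28 to -0.22).

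**Figure D4:**
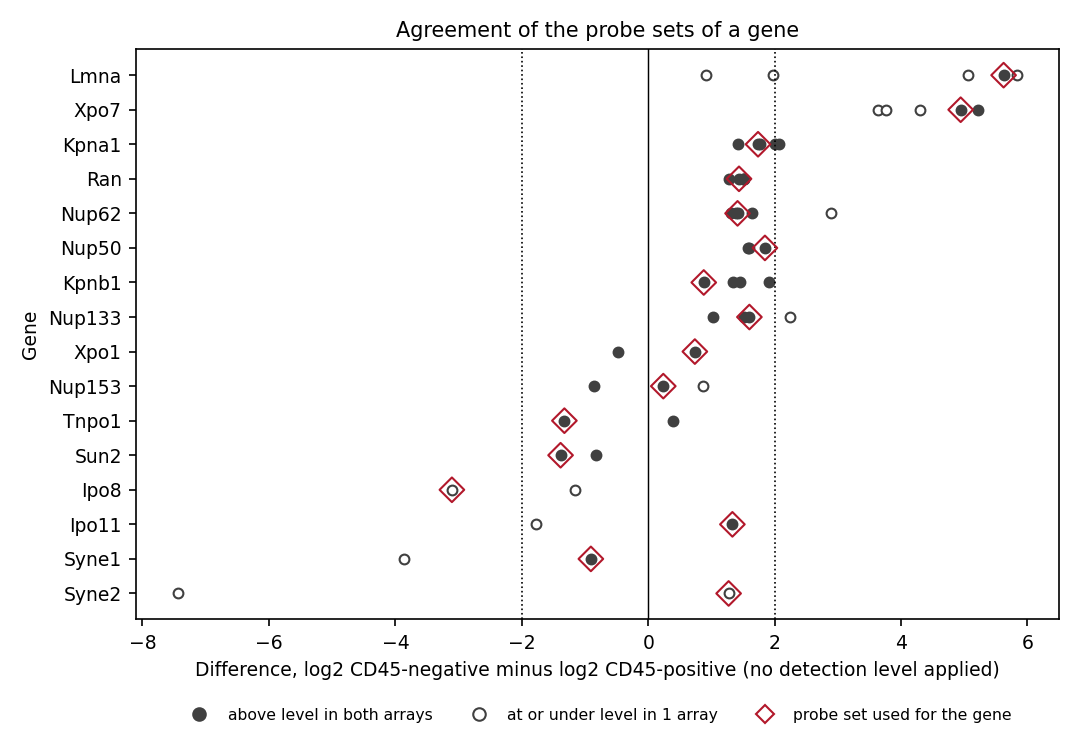
Difference (log2 CD45-negative minus CD45-positive, no level applied) of every measured probe set of 16 members, with open points where 1 array was at or under its level and a red diamond for the probe set that stands for the gene. The points of Lmna spread from 0.91 to 5.84 and those of Xpo7 from 3.64 to 5.21, while those of Xpo1, Nup153, Tnpo1, Ipo11 and Syne2 fall on both sides of 0.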

How the data were processed

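Each sample was hybridised to 1 Affymetrix 3' array after biotin labelling of total RNA, per the labels' protocols. The authors deposited 1 linear intensity per probe set and array for 45037 probe sets. The submitters' processing notes name GCRMA and Partek 6.6 without a role for either. Means without the lowest and highest 2% of values were 494 in the CD45-negative and 497 in the CD45-positive array, and no source used here names the step that scaled them. GEO's platform annotation gave 34945 probe sets 1 symbol. All 55 member symbols matched the RefSeq table of GRCm38.p6 by Entrez identifier. The deposited intensities were converted to log2 without a pseudocount or further normalization, and a gene took its probe set with the highest mean log2 value.

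Members, role groups, lists and the 4-fold threshold were chosen with earlier results of these data known. Any member could be named. From the other pathway genes, those past 4-fold and at most 4 per role were named. The stromal gene list was chosen after seeing the data. A planned comparison of protein sequences was not run. Alternatives were quantile normalization, median centring, the mean of probe sets, probe sets without cross-hybridization suffixes, 3 other detection settings, a pseudocount of 32 and a 2-fold threshold. Counting was tested on simulated data for genes well above the level. The level seldom acted there, so the step that sets dim values to the level was not tested. Tables were handled with pandas 2.3.3 and numpy 2.4.6 under Python 3.11.15, trimmed means came from scipy 1.17.1, and plots were drawn with matplotlib 3.10.9.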

Additional observations from a re-analysis of the deposited data

Results flagged for a closer look

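Probe sets that the annotation gives to a member and another gene together took no part in the comparison. All 3 of them were brighter in the CD45-negative than in the CD45-positive array. The probe set shared by Kpna4 and 9630025H16Rik had 1653 in CD45-negative cells against 1136.5 in CD45-positive cells, a difference of 0.54. That shared by Ipo4 and Tm9sf1 had 1609 against 1355 (0.25), where Ipo4 alone gave -1.23. That shared by Xpo4 and Lats2 had 738 against 648 (0.19). Which of the genes gave the signal was not tested, and no replicate bears on these values.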

How the results depend on the processing

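Lmna, Xpo7 and Kpna2 were the members at least 4-fold higher as deposited, after median centring, with every detection setting and with the pseudocount. After quantile normalization 5 were (Lmna, Lmnb1, Nup85, Rcc1 and Xpo7), the median of the members was 0.80 and that of the nucleoporins 0.79. With the mean of probe sets 4 were higher (with Lmnb1) and 0 lower, with Ipo8 at -0.98, and the median of the nucleoporins was 0.40. Without probe sets suffixed x, s or a, Kpna2 and Xpo7 remained higher, as Lmna kept only its dimmest probe set. Without those suffixed x or s alone, a setting chosen after seeing the data, all 3 remained. Without a detection level 2 were lower, Ipo8 and the unmeasured Nup210l. At 2-fold, 17 were higher and 5 lower. The other pathway genes at least 4-fold lower numbered 0 after quantile normalization, 1 with the mean of probe sets and 0 with the pseudocount. Zmpste24 also fell just under 4-fold after median centring (-1.9999). Ddx19b did so at the 99th percentile level (-1.41) and with a level for each array (-1.74). Rangap1 was under 4-fold without probe sets suffixed x, s or a (0.72), with the mean of probe sets (1.95) and with the pseudocount (1.97). Of 53 members, 7 had another sign after quantile normalization, 0 after median centring, and 2 of 51 with the mean of probe sets (Ipo11 and Nup160). Without probe sets suffixed x, s or a, 3 of 46 did, and without those suffixed x or s, 3 of 52 (Ipo9, Syne4 and Tnpo3 in both). With the pseudocount 2 did (Syne2 and Syne4), with a level for each array 1 of 52 (Syne4), and 0 without a level or at the 99th percentile. No paired analysis was possible because each group had 1 array. Signal near the level limits Ipo8, Lmnb2, Syne2, Syne3 and Syne4, and the number of arrays limits every value.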
